A study of Mus musculus with 4 samples.

Results

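The genes described here are 10 nuclear genes that drive mitochondrial biogenesis or carry respiration, taken by name from the 53465 gene identifiers of a count table. They are the coactivator genes Ppargc1a and Ppargc1b, the transcription factor genes Nrf1 and Esrra, the mitochondrial transcription genes Tfam, Polrmt and Tfb2m, the cytochrome c gene Cycs, and the ATP synthase genes Atp5a1 (now Atp5f1a) and Atp5b (now Atp5f1b). Of the 10, 6 had enough counts to be tested, Ppargc1b was below the filter on low counts, and Tfam, Polrmt and Tfb2m were listed at 0 in all 4 libraries. Ppargc1a was lower in the 1-nitropyrene libraries, Nrf1, Cycs and Atp5b were higher by smaller ratios, and Esrra and Atp5a1 did not pass the test.

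RNA with poly(A) tails was sequenced from MLE-12 cells, going by the labels. Even so, rRNA loci took 44.2% to 45.9% of the counts of a library, and why was not tested. MLE-12 is a line of immortalized epithelial cells of mouse lung that descends from lung tumours of mice carrying a viral large T antigen under a surfactant protein C promoter. The groups were 2 libraries of cells given 5 µM 1-nitropyrene for 12 h (replicates 2 and 3) and 2 libraries of control cells kept without it (replicates 1 and 2). 1-nitropyrene is a nitrated polycyclic aromatic hydrocarbon of diesel exhaust. Both groups were the same line in serum-containing medium, and the labels name no vehicle for the controls.

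PGC-1α, the protein of Ppargc1a, binds no DNA itself and is recruited by transcription factors such as NRF1 and the oestrogen-related receptor α (the protein of Esrra), which switch on nuclear genes for respiration. Among those genes are the mitochondrial transcription factor gene Tfam, the cytochrome c gene and subunits of ATP synthase. TFAM, TFB2M and the RNA polymerase POLRMT then transcribe mitochondrial DNA. In alveolar epithelium, a tissue that secretes surfactant lipid, mitochondrial biogenesis is known to respond to stress and injury.

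The promoters of 4 genes with letters that NRF1, GABP (an ETS factor long known as NRF2) or CREB bind are shown as examples. PGC-1α and mitochondrial transcription are known to be controlled through these regulators. The windows of Atp5b and Tfb2m held such letters too and are not printed, and that of Ppargc1a held only a short core. The RefSeq table of promoters (GRCm38.p6) matched 8 of the 10 genes, with 300 bases per window, 250 before and 50 after the start. The start is the one in that table and can differ from the gene coordinates given below, which come from GENCODE M21. The Tfam stretch printed here lies inside the Tfam gene as GENCODE places it (chr10:71225464-71238280). All 4 genes lie on the minus strand and are printed 5′ to 3′ up to the base before the start, with motif letters in capitals, at chr5:51567726-51567825 for Ppargc1a, chr6:50566570-50566769 for Cycs, chr10:71238045-71238144 for Tfam and chr10:79746582-79746681 for Polrmt.
Ppargc1a: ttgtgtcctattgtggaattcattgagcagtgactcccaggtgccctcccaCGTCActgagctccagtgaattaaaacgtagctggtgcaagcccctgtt
Cycs: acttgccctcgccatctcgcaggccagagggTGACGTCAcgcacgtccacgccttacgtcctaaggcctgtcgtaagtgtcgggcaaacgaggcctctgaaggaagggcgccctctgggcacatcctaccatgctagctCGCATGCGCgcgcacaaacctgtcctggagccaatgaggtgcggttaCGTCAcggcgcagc
Tfam: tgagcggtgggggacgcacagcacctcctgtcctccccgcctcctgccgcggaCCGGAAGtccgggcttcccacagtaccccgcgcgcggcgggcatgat
Polrmt: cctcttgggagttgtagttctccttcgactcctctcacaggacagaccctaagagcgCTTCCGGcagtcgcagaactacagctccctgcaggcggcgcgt

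Each window was searched on both strands. The NRF1 letters GCGCATGCG lay 61 bases before the start of Cycs and 12 bases after that of Tfb2m, and were in 1.75% of the 32851 windows of the table. The GABP letters CCGGAAG lay 47 bases before the start of Tfam and 43 bases before that of Polrmt, against 8.86% of all windows. The cAMP response element TGACGTCA lay 169 bases before the start of Cycs and was in 1.79% of all windows. Its shorter core TGACG was found 49 bases before the start of Ppargc1a and 237 and 94 bases before that of Atp5b, and 20.8% of all windows held it. The Cycs window held the core 14 bases before the start and also inside the full element, with which it overlaps. The oestrogen-related receptor letters AAGGTCA (4.72% of all windows) and the YY1 letters AAGATGGCG (1.40%) were not among the letters of these genes' windows, and the Nrf1 and Esrra windows held none of the 6 motifs. The response element and its core were added after the promoters had been read. These matches are letters in a window, and binding was not measured.

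The libraries held 8797502 and 8601825 counts in 1-nitropyrene replicates 2 and 3 and 10773733 and 6908055 counts in control replicates 1 and 2, so a floor of 3 counts corresponds to 0.278 to 0.434 CPM (counts relative to the library total) for a gene listed at 0, a limit that covers counting error only. Of 21942 protein-coding genes, 12111 (55.2%) were listed at 0 in all 4 libraries, among them 17 of 37 nuclear subunits of complex I, which every respiring cell uses. All 10 epithelial markers (Epcam, Cdh1, Krt8, Krt18, Krt19 and others) were listed at 0, so they did not bear out the line's label. Of 10 alveolar type 2 markers 6 were at 0, a share near that of all protein-coding genes. The type 2 list summed to 14.9 and 14.3 CPM with 1-nitropyrene and 14.7 and 13.5 CPM in the controls. With so many genes at 0, these counts cannot settle what the cells are. Fibroblast and mesenchymal markers, 1 of 15 at 0 and 8 below the filter, summed to 525 and 535 CPM in the 1-nitropyrene libraries and 530 and 525 CPM in the controls. Of the 6 tested, 1 was called higher and 3 lower, with log2 fold changes of -1.77 to 0.23 (median -0.72). The level sum therefore does not describe the list's markers as a whole. Alveolar type 1 and airway markers, 6 of 9 at 0 and carried by Cav1, summed to 61.3 and 55.0 CPM with 1-nitropyrene and 94.7 and 85.7 CPM in the controls. Endothelial (3 of 8 at 0) and leukocyte (5 of 9 at 0) markers summed to at most 0.371 CPM in any library. 1-nitropyrene replicate 3 stood apart in mitochondrially encoded mRNAs, which summed to 1.86 CPM there, against 24.6 CPM in 1-nitropyrene replicate 2. The controls also differed in this sum, at 46.9 CPM in replicate 1 and 30.4 CPM in replicate 2. The part of these differences in the results below was not tested.

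Values below are CPM scaled with TMM factors. A mean stands with its SD over the n = 2 libraries of the group, and a fold is log2 of 1-nitropyrene over control with the standard error (SE). Tests used the quasi-likelihood method of edgeR on 7738 genes together, and a gene was called at an adjusted p under 0.05. At this threshold 1024 genes (13.2%) were called higher and 870 (11.2%) lower, 24.5% in either direction. The median log2 fold change of all tested genes was -0.00. Nothing in the labels ties each library to a culture of its own, so the p-values measure only the spread between libraries, which may be technical. The fit shared this spread across genes and gave no gene a spread of its own.

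The question put to these genes was whether the level of each differed between 1-nitropyrene and control libraries. Of the 6 tested genes, 3 were called higher (Nrf1, Cycs and Atp5b) and 1 lower (Ppargc1a), beside the 13.2% and 11.2% of all tested genes. DESeq2, which called 12.5% of the 5569 genes it gave an adjusted p, called Cycs and Atp5b higher and Ppargc1a lower. The log2 fold changes of the 6 genes ran between -0.66 and 0.28, and 4 of the 6 were positive, against 49.6% of all tested genes.

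**Figure D1:**
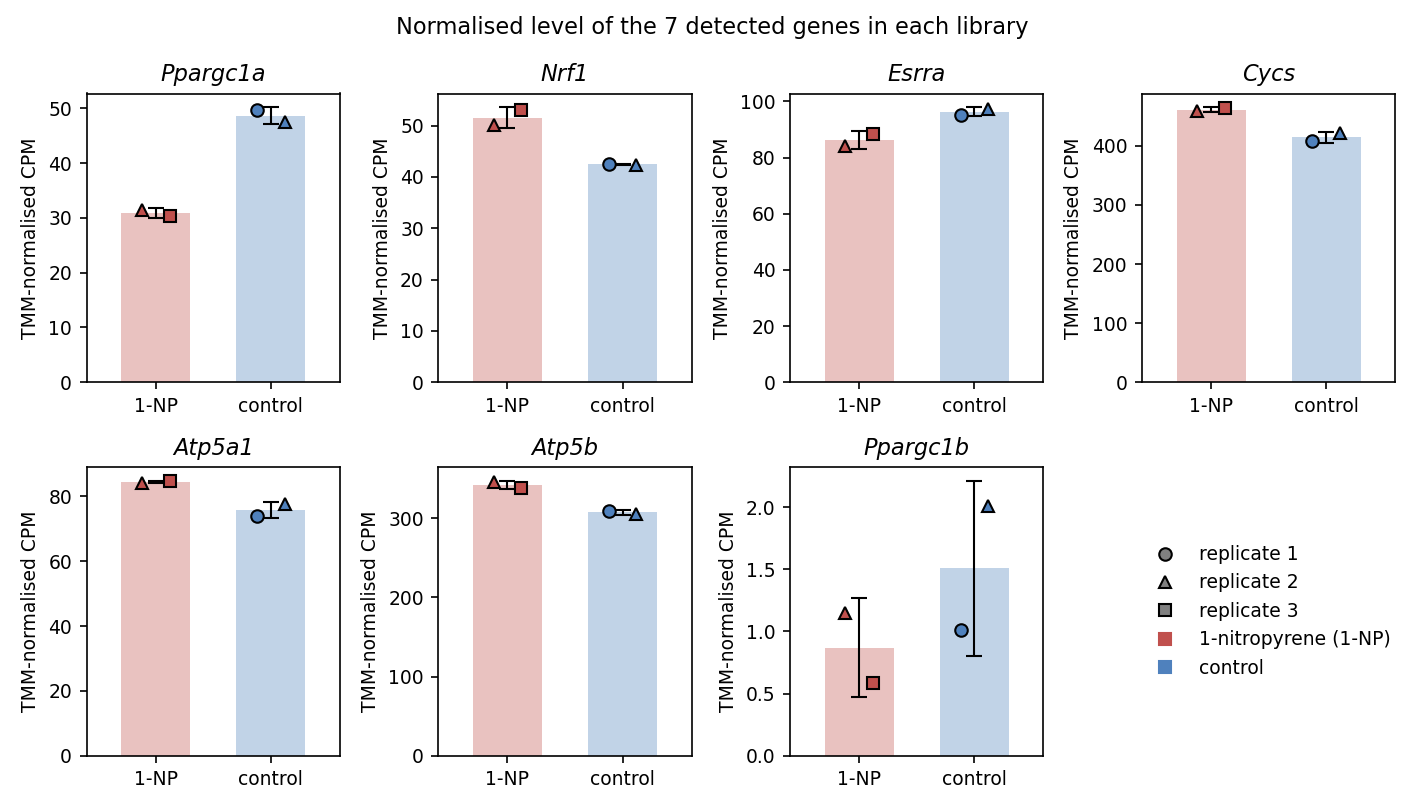
TMM-scaled CPM (vertical axes, each starting at 0) of the 7 genes with counts, by group (horizontal axes), with bars for the mean, error bars for the SD of 2 libraries and a symbol for each replicate. Both 1-nitropyrene libraries lie below both controls for Ppargc1a and Esrra and above them for Nrf1, Cycs, Atp5a1 and Atp5b, and the groups overlap for Ppargc1b. With 2 libraries against 2, groups can readily lie apart by chance, and Esrra and Atp5a1 were not called.

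Ppargc1a (chr5:51454250-51567726, minus strand, GRCm38), the coactivator gene, had 274 and 258 counts in 1-nitropyrene replicates 2 and 3, against 541 and 332 counts in control replicates 1 and 2. These are 31.5 and 30.3 CPM with 1-nitropyrene, against 49.8 and 47.6 CPM in the controls. The groups did not overlap and lay much further apart than the libraries of either group. The mean was 30.9 ± 0.843 CPM with 1-nitropyrene and 48.7 ± 1.54 CPM in control, a log2 difference of -0.66 (SE 0.10), with an adjusted p of 5.41e-10, or a ratio of 0.633 (95% interval 0.554 to 0.723). In bulk RNA, fewer cells that express a gene and less of its RNA per cell cannot be told apart. The call held under all 16 alternatives, with log2 fold changes of -0.69 to -0.62, and without 1-nitropyrene replicate 3 it was -0.63 (adjusted p = 1.28e-06).

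Ppargc1b, which encodes the related coactivator PGC-1β (chr18:61298136-61400431), had 10 and 5 counts in the 1-nitropyrene libraries, against 11 and 14 in the controls. These low counts overlapped between groups in CPM, at 1.15 and 0.588 with 1-nitropyrene and 1.01 and 2.01 in control, and the gene was not tested. Its summed counts of 15 with 1-nitropyrene and 25 in control gave a depth-corrected ratio of 0.61, with an exact counting interval of 0.299 to 1.20, so a change of the size seen in Ppargc1a was not detectable at this depth. The third member of the coactivator family, Pprc1, had 72.6 and 79.3 CPM with 1-nitropyrene and 72.4 and 70.5 CPM in control and was not called (log2 fold change 0.08, SE 0.07, adjusted p = 0.434). The antisense gene Ldb1 overlaps 177 exonic bases of Pprc1, and the strand setting of the counting is not given in the sources used here. Ppargc1a was thus the 1 coactivator of the family that passed the test, and the difference between the family's folds was not tested.

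The 3 genes whose profile over the 4 libraries lay nearest to that of Ppargc1a, by Euclidean distance of centred log2 CPM among 7697 tested genes averaging 1 CPM or more, were Maml2, Pcolce and Itga5, at distances of 0.0585, 0.0627 and 0.0672. Maml2, a coactivator of Notch signalling, had 1.84 and 1.76 CPM with 1-nitropyrene and 2.76 and 2.72 CPM in control, and was not called (adjusted p = 0.307). Pcolce, an enhancer of procollagen processing that has 112 exonic bases antisense to Gm36266, had 14.4 and 14.3 CPM with 1-nitropyrene and 24.1 and 22.6 CPM in control (log2 fold change -0.71, adjusted p = 1.01e-05). Itga5, the integrin α subunit of the fibronectin receptor, had 69.0 and 67.6 CPM with 1-nitropyrene and 113.6 and 110.8 CPM in control (log2 fold change -0.72, adjusted p = 2.72e-25). With 4 libraries in 2 groups, this likeness mostly describes genes that fell by a similar amount.

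Nrf1, the nuclear respiratory factor gene (chr6:30047988-30153458, plus strand), had 436 and 451 counts with 1-nitropyrene, against 463 and 296 in control. Scaled to depth these were 50.1 and 53.0 CPM with 1-nitropyrene and 42.6 and 42.4 CPM in control, without overlap. Nrf1 rose by 0.28 on the log2 scale (SE 0.09, adjusted p = 0.0108), a ratio of 1.21 (95% interval 1.07 to 1.37). This call was lost in 5 of the 16 alternatives, namely in DESeq2 (adjusted p = 0.221), at a threshold of 0.01, and without 1-nitropyrene replicate 3 (0.24, adjusted p = 0.101), control replicate 1 (0.28, adjusted p = 0.112) or control replicate 2 (0.27, adjusted p = 0.0679), while the log2 fold change stayed between 0.24 and 0.32.

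Esrra, the oestrogen-related receptor gene (chr19:6910977-6921813, minus strand), had 730 and 753 counts with 1-nitropyrene, against 1035 and 680 in control. In CPM these were 84.0 and 88.5 with 1-nitropyrene and 95.2 and 97.5 in control, so that both treated libraries lay below both controls. The log2 fold change of -0.16 (SE 0.07, adjusted p = 0.0611) did not pass the test, at a ratio of 0.897 (95% interval 0.821 to 0.980). It passed with a minimum mean of 10 CPM (-0.18, adjusted p = 0.0213), with no scaling factors (-0.19, adjusted p = 0.0205) and with upper-quartile factors (-0.17, adjusted p = 0.0407). Trmt112 overlaps 73 exonic bases of Esrra on the other strand and had only 16 and 19 counts with 1-nitropyrene and 23 and 21 in control. The microRNA gene Mir6990 overlaps 91 exonic bases on the same strand. The related receptor genes Esrrg and Esrrb were listed at 0 in all 4 libraries. Gabpa, the DNA-binding subunit of GABP, had 20.2 and 17.6 CPM with 1-nitropyrene and 15.7 and 18.9 CPM in control, which overlapped (log2 fold change 0.16, SE 0.14, adjusted p = 0.478), and 397 of its exonic bases are antisense to Atp5j.

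The genes of mitochondrial transcription gave no value to compare. Tfam (chr10:71225464-71238280), which packages mitochondrial DNA and opens its promoters, had 0 counts in all 4 libraries. Polrmt (chr10:79736123-79746581), the RNA polymerase, and Tfb2m (chr1:179528055-179546267), which melts the promoter for it, also had 0 counts in each, as did Tfb1m, the rRNA methyltransferase related to Tfb2m. A pseudogene of Tfb2m, Gm1818, is identical to it over 1187 bases and was at 0 as well, while no such copy of Tfam or Polrmt was found. Why these genes were listed at 0 was not tested, and their absence from the cells was not shown.

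Of the 21 listed genes of mitochondrial DNA replication and transcription, Tfb1m among them, 11 were at 0, 3 were below the filter and 7 were tested. Of these 1 was called higher by edgeR and 0 lower (14.3%, against 24.5% of all tested genes), with a median log2 fold change of -0.21. At an unadjusted p under 0.05 the counts were 1 and 2, and DESeq2 called 0 and gave no adjusted p for 3 of the 7. Polg, the mitochondrial DNA polymerase, had 103.9 and 112.5 CPM with 1-nitropyrene and 105.5 and 111.4 CPM in control, a log2 ratio of 0.00 (SE 0.06, adjusted p = 0.988), with 921 exonic bases antisense to Fanci. Ssbp1, which coats single-stranded mitochondrial DNA, had 13.7 and 12.3 CPM with 1-nitropyrene and 14.3 and 16.1 CPM in control and did not pass (-0.21, SE 0.16, adjusted p = 0.394). The gene called was Lig3, a DNA ligase of nucleus and mitochondria, at 48.9 and 48.2 CPM with 1-nitropyrene and 38.6 and 42.6 CPM in control (0.27, adjusted p = 0.0175), of which 1826 exonic bases are antisense to Rffl and which DESeq2 did not call (adjusted p = 0.289).

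Of the products of mitochondrial DNA, the rRNAs were lower in both 1-nitropyrene libraries than in both controls. The mRNAs were few in counts and uneven between libraries of a group. The 2 mitochondrial rRNAs were called lower under every alternative in which they were tested. mt-Rnr2 had 1115 and 1146 CPM with 1-nitropyrene, against 1439 and 1463 CPM in control (log2 fold change -0.36, SE 0.03, adjusted p = 2.14e-41), and mt-Rnr1 had 161 and 179 CPM with 1-nitropyrene, against 270 and 237 CPM in control (-0.59, SE 0.05, adjusted p = 9.24e-36). Of 13 mitochondrially encoded mRNAs, 3 were at 0, 3 were below the filter and the 7 tested were called lower, with a median log2 fold change of -1.63. Their counts were few: mt-Co1, the most abundant, had 67 and 3 counts in 1-nitropyrene replicates 2 and 3, against 176 and 67 in control replicates 1 and 2. These mRNA calls rested largely on 1 library, since without 1-nitropyrene replicate 3 there was 1 call of the 7 and the mt-Co1 log2 fold change was -0.82 in place of -1.73. Without control replicate 1 there was also 1 call, a robust fit gave 4 and limma-voom 7. DESeq2 did not call mt-Co1 (adjusted p = 0.631) and gave no adjusted p for the other 6.

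Cycs, the somatic cytochrome c gene (chr6:50562563-50566538, minus strand), had 3990 and 3951 counts with 1-nitropyrene, against 4432 and 2940 in control. In CPM these were 459 and 464 with 1-nitropyrene and 408 and 421 in control, without overlap. Cycs rose by 0.16 on the log2 scale (SE 0.04, adjusted p = 9.35e-05), a ratio of 1.12 (95% interval 1.06 to 1.17), and the call held under all 16 alternatives, at 0.13 to 0.18. Cycs has near-identical copies whose reads the counting could split: Gm10053 is identical over 946 bases and had 230 and 213 counts with 1-nitropyrene and 241 and 160 in control, and the pseudogenes Gm10108, Gm11625 and Gm13772 had at most 8 counts in a library. Cyct, the testis form of cytochrome c, was listed at 0. Hccs, the enzyme that attaches haem to cytochrome c, had 13.9 and 13.8 CPM with 1-nitropyrene and 10.9 and 7.88 CPM in control and was called higher (0.51, SE 0.18, adjusted p = 0.0221). DESeq2 did not call Hccs (adjusted p = 0.259), nor was it called without 1-nitropyrene replicate 2, 1-nitropyrene replicate 3 or control replicate 2, and 1335 of its exonic bases are antisense to Arhgap6.

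Atp5b, the catalytic β subunit of ATP synthase (chr10:128083273-128090391, plus strand), had 3009 and 2881 counts with 1-nitropyrene, against 3365 and 2133 in control. In CPM these were 346 and 339 with 1-nitropyrene and 309.5 and 306 in control, a small difference without overlap. Atp5b rose by 0.15 on the log2 scale (SE 0.04, adjusted p = 0.000708), a ratio of 1.11 (95% interval 1.06 to 1.17), and was called in all 16 alternatives. In DESeq2 the call of Atp5b was close to the threshold (adjusted p = 0.0464). Atp5a1, the α subunit that alternates with β in the enzyme's head (chr18:77773729-77782869, plus strand), had 732 and 721 counts with 1-nitropyrene, against 804 and 541 in control. Its CPM were 84.2 and 84.7 with 1-nitropyrene and 74.0 and 77.5 in control, again without overlap. The log2 fold change of Atp5a1 was 0.16 (SE 0.07, adjusted p = 0.0705), a ratio of 1.12 (95% interval 1.02 to 1.23), which passed under none of the 16 alternatives. The intervals of Atp5a1 and Atp5b overlap almost wholly, so a call in one and not in the other does not show that they differ. Haus1 overlaps 129 exonic bases of Atp5a1 on the other strand and had 1 count in all.

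Levels were set against each other per kb of merged exons. Cycs was highest, at 136 ± 1.13 CPM per kb with 1-nitropyrene and 122 ± 2.85 in control, and Atp5b was next, at 80.8 ± 1.25 with 1-nitropyrene and 72.6 ± 0.636 in control. Atp5a1 stood at 26.9 ± 0.123 with 1-nitropyrene and 24.2 ± 0.808 in control. Esrra stood at 19.7 ± 0.731 with 1-nitropyrene and 22.0 ± 0.364 in control. Each of these neighbours differed by more than their SDs in both groups. Nrf1 and Ppargc1a changed places. With 1-nitropyrene Nrf1 stood at 5.02 ± 0.196 CPM per kb and Ppargc1a at 4.69 ± 0.128, a gap of about the size of their summed SDs. In control Ppargc1a stood at 7.38 ± 0.234 CPM per kb and Nrf1 at 4.13 ± 0.0113, a gap well beyond their SDs. Ppargc1b was lowest of the detected genes, at 0.218 ± 0.0997 CPM per kb with 1-nitropyrene and 0.378 ± 0.176 in control. The β and α subunits of ATP synthase occur in equal number in the enzyme, while their counts per kb differed here. Merged exons take in every annotated transcript of a gene, used or not. With 55.2% of protein-coding genes listed at 0, the share of RNA counted may differ between genes, which was not tested. The order of genes is thus one of counts per kb and may not be that of their transcripts.

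**Figure D2:**
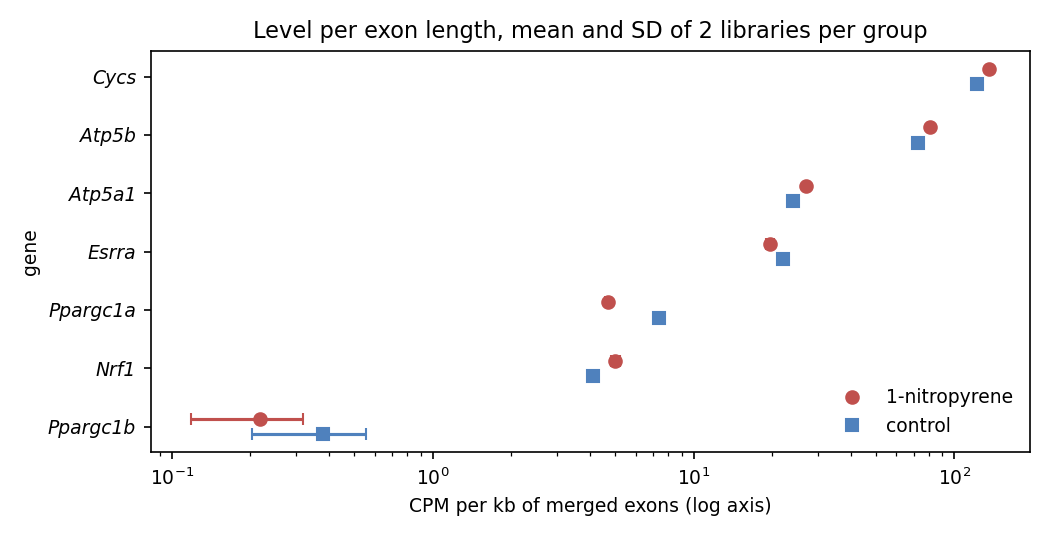
CPM per kb of merged exons (horizontal log axis) of the 7 genes with counts (vertical axis), as mean and SD of 2 libraries per group. Cycs and Atp5b lie highest and Ppargc1b lowest in both groups, and Ppargc1a lies below Nrf1 with 1-nitropyrene (4.69 and 5.02) and above it in control (7.38 and 4.13).

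The regulators around PGC-1α were taken as lists. Of 35 transcription factors and cofactors of biogenesis, 27 were tested, 5 were called higher and 1 lower, with a median log2 fold change of 0.03. The share called was 22.2%, near the 24.5% of all tested genes. Those called higher were Pparg, a nuclear receptor that PGC-1α coactivates, Med1, the Mediator subunit that contacts nuclear receptors, Hcfc1, a chromatin-bound coregulator, Mef2c, a MADS-box factor, and Ep300, a histone acetyltransferase. Pparg had 481 and 524 CPM with 1-nitropyrene, against 375 and 387 CPM in control (log2 fold change 0.40, SE 0.04, adjusted p = 6.02e-28). Mef2c had 58.9 and 55.0 CPM with 1-nitropyrene, against 33.8 and 42.0 CPM in control (0.62, SE 0.09, adjusted p = 2.32e-10). The gene called lower was the nuclear receptor corepressor Ncor1, at 234 CPM in each 1-nitropyrene library, against 248 and 266 CPM in control (-0.13, SE 0.04, adjusted p = 0.0139). Ncor1 was 1 of 3 called lower with no scaling factors, and DESeq2 did not call it.

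Of 23 upstream kinases, deacetylases and other modifiers, 17 were tested, 4 were called higher and 1 lower, with a median log2 fold change of -0.05. The share called was 29.4%, against 24.5% of all tested genes. Sirt1, the deacetylase that activates PGC-1α protein, had 24.0 and 24.1 CPM with 1-nitropyrene, against 14.8 and 16.2 CPM in control (log2 fold change 0.65, SE 0.14, adjusted p = 4.53e-05), with 65 exonic bases antisense to Gm16145. Stk11, the LKB1 kinase that activates AMPK, had 29.3 and 29.6 CPM with 1-nitropyrene, against 47.3 and 52.0 CPM in control (-0.74, SE 0.10, adjusted p = 3.26e-12), with 232 exonic bases antisense to Cbarp. The insulin-signalling kinase Akt2 had 18.6 and 20.7 CPM with 1-nitropyrene, against 11.1 and 12.0 CPM in control (0.77, SE 0.16, adjusted p = 1.49e-05). Akt1 and the arginine methyltransferase Prmt1 were also called higher, at 0.18 and 0.20. These calls for Sirt1, Stk11, Akt1 and Akt2 held under all 16 alternatives. Fbxw7, the ubiquitin ligase subunit whose translation the study asked about and which is known to bind PGC-1α, had 23.3 and 25.0 CPM with 1-nitropyrene, against 27.1 and 29.4 CPM in control, and was not called (-0.21, SE 0.12, adjusted p = 0.196).

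The nuclear subunits of the respiratory complexes were thinly covered. Of 83 such genes besides Atp5a1 and Atp5b, 30 were at 0, 34 were below the filter and 19 were tested, of which 5 were called higher and 1 lower, with a median log2 fold change of 0.10 and 13 positive. The share called was 31.6%, against 24.5% of all tested genes, and 83.3% of these few calls were higher, against 54.1% over all genes. ATP synthase held 3 of the 5: the subunit c genes Atp5g3 and Atp5g2, of the membrane ring, and the rotor gene Atp5c1. Atp5g3 had 676 and 674 CPM with 1-nitropyrene, against 617 CPM in each control (log2 fold change 0.13, SE 0.03, adjusted p = 0.000319). It was the 1 subunit of the 5 called by DESeq2 (adjusted p = 0.0141). Ndufab1, the acyl carrier subunit of complex I, had 74.2 and 69.8 CPM with 1-nitropyrene, against 59.6 and 60.5 CPM in control (0.26, SE 0.08, adjusted p = 0.00350), a call lost without 1-nitropyrene replicate 2 or control replicate 1 and under DESeq2 (adjusted p = 0.154). Cox5a of complex IV had 217 and 243 CPM with 1-nitropyrene, against 206 and 201 CPM in control (0.17, SE 0.05, adjusted p = 0.000940), a call lost without 1-nitropyrene replicate 3 and under DESeq2 (adjusted p = 0.103). The gene called lower was Atp5l, subunit g of the ATP synthase membrane part, at 24.6 and 26.8 CPM with 1-nitropyrene, against 32.6 and 31.4 CPM in control (-0.32, SE 0.11, adjusted p = 0.0247). DESeq2 did not call Atp5l (adjusted p = 0.302), nor was it called without 1-nitropyrene replicate 2, control replicate 1 or control replicate 2. Ndufab1, Cox5a and Atp5l each overlap a predicted antisense gene (Gm44986, Gm26631 and Gm30934). With no scaling factors the split was 3 higher to 2 lower (60.0% higher, against 46.0% over all genes).

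**Figure D3:**
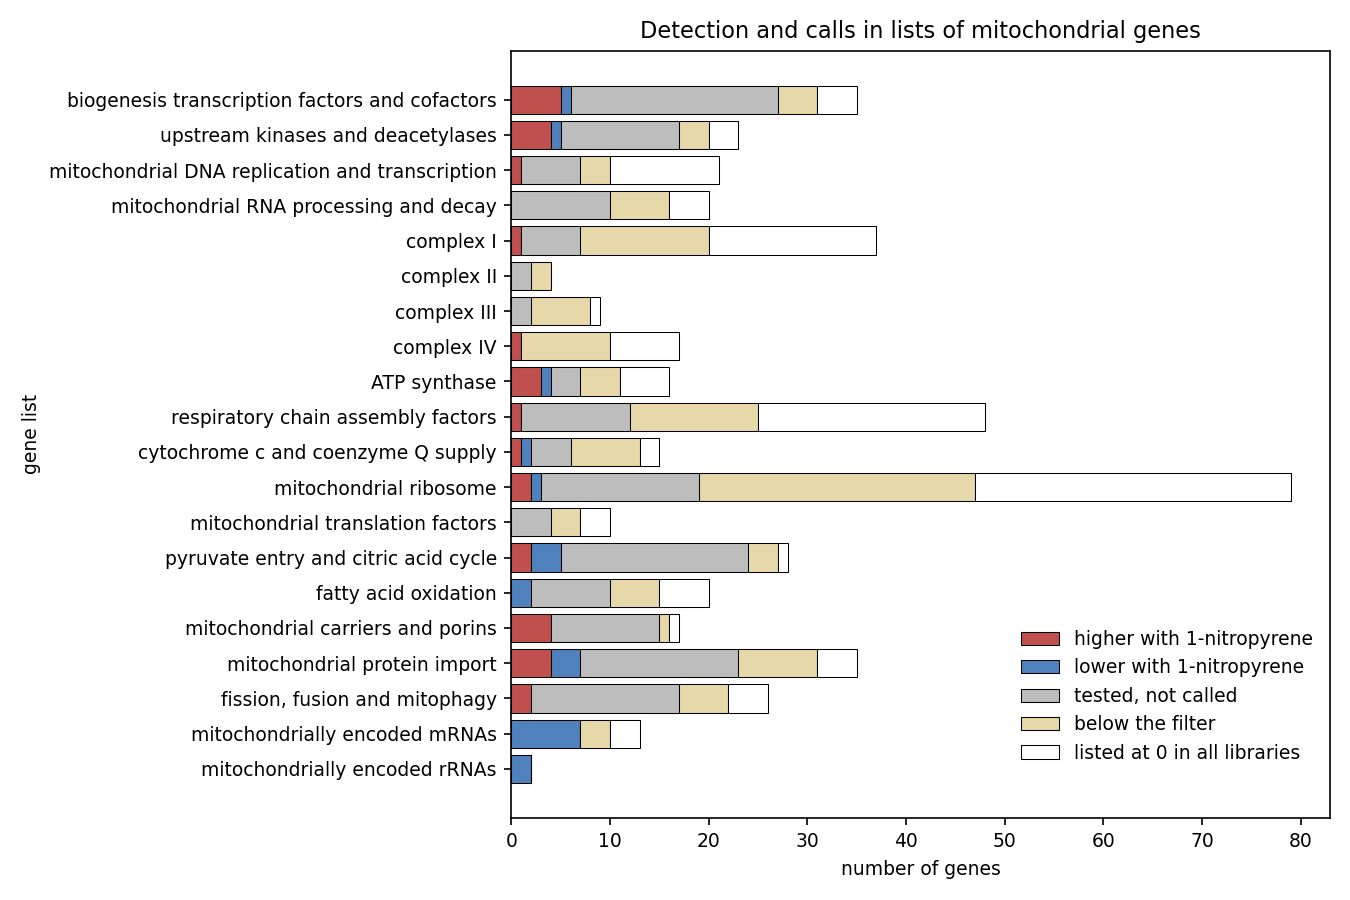
Number of genes (horizontal axis) in each list of mitochondrial genes (vertical axis) that were called higher or lower with 1-nitropyrene, tested and not called, below the filter on low counts, or listed at 0 in all 4 libraries. The open and tan parts show how few complex I and complex IV genes (7 of 37 and 1 of 17) could be tested, and the blue bars at the bottom are the mitochondrially encoded RNAs.

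Over all 18 nuclear lists, without the 10 genes, 210 of 460 genes were tested, 31 were called higher and 13 lower (70.5% of calls higher, against 54.1% over all genes), with a median log2 fold change of 0.03. The share called in either direction was 20.95%, against 24.5% of all tested genes. With no scaling factors the split was 26 higher to 21 lower (55.3%, against 46.0% over all genes), and DESeq2 called 14 higher and 3 lower. Metabolite carriers and porins had 4 genes higher and 0 lower of 15 tested in edgeR (median 0.12), with 4 and 2 at an unadjusted p under 0.05 and 2 and 0 in DESeq2. The edgeR share called in this list was 26.7%, near the 24.5% of all tested genes. Slc25a5, the adenine nucleotide translocase that trades ATP for ADP, had 1414 and 1411 CPM with 1-nitropyrene, against 1059 and 1077 CPM in control (log2 fold change 0.40, SE 0.03, adjusted p = 4.55e-51). Slc25a3, the phosphate carrier that feeds ATP synthase, had 784 and 769 CPM with 1-nitropyrene, against 594 and 618 CPM in control (0.36, SE 0.03, adjusted p = 1.19e-29). Slc25a1, the citrate carrier, and Slc25a4, the second adenine nucleotide translocase, were called higher at 0.43 and 0.12 and lost in DESeq2.

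Genes of pyruvate entry and the citric acid cycle were called in both directions, 2 higher and 3 lower of 24 tested (20.8%, against 24.5% of all tested genes, median -0.04), and DESeq2 called 1 and 1. Ogdh, of the 2-oxoglutarate dehydrogenase complex, had 517 and 528 CPM with 1-nitropyrene, against 404 and 401 CPM in control (log2 fold change 0.38, SE 0.03, adjusted p = 1.86e-25). Idh2, the NADP-linked isocitrate dehydrogenase, had 271 and 261 CPM with 1-nitropyrene, against 376 and 373 CPM in control (-0.49, SE 0.04, adjusted p = 9.51e-34). Fatty acid oxidation had 0 genes higher and 2 lower of 10 tested in edgeR (median -0.16), with 0 and 6 at an unadjusted p under 0.05 and 0 and 1 in DESeq2. The edgeR share called was 20%, against 24.5% of all tested genes, and a link to Ppargc1a was not tested. Hadhb, a subunit of the trifunctional enzyme of the oxidation spiral, had 90.6 and 85.8 CPM with 1-nitropyrene, against 107 and 114 CPM in control (-0.32, SE 0.06, adjusted p = 6.28e-06), and Etfa, which passes the electrons on, was called at -0.16 and lost in DESeq2.

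Protein import had 4 genes higher and 3 lower of 23 tested in edgeR (median 0.09), with 5 and 3 at an unadjusted p under 0.05 and 2 and 0 in DESeq2. The edgeR share called was 30.4%, against 24.5% of all tested genes. Its calls were led by the outer-membrane receptor Tomm20 at 260 and 288 CPM with 1-nitropyrene, against 223 and 230 CPM in control (log2 fold change 0.28, SE 0.04, adjusted p = 2.36e-09). The small chaperone gene Timm13 was also higher, at 0.36, and Tomm7 of the outer pore was lower, at -0.48, a call lost in DESeq2 (adjusted p = 0.118). The mitochondrial ribosome had 2 genes higher and 1 lower of 19 tested (15.8% called), from 79 listed of which 32 were at 0 (median -0.04). At an unadjusted p under 0.05 these counts were also 2 and 1, and DESeq2 called 0 and gave no adjusted p for 11 of the 19. Fission, fusion and mitophagy had 2 higher and 0 lower of 17 in edgeR (11.8% called, median 0.03, with 2 and 4 at an unadjusted p under 0.05, and 1 and 0 in DESeq2), namely the mitophagy receptor Fkbp8 at 0.40 and the inner-membrane fusion GTPase Opa1 at 0.20. Assembly factors had 1 higher and 0 lower of 12 in edgeR (8.33% called, Cox11 at 0.30), with 3 and 0 at an unadjusted p under 0.05 and 0 calls in DESeq2, which gave no adjusted p for 7 of the 12. The list of cytochrome c and coenzyme Q supply had 1 higher and 1 lower of 6 (33.3% called, Hccs and Coq9 at 0.51 and -0.49) in edgeR, with 2 and 1 at an unadjusted p under 0.05, and DESeq2 called 0 and gave no adjusted p for 2 of the 6. Coq9 was also not called without 1-nitropyrene replicate 2 or control replicate 1. Mitochondrial RNA processing and translation factors had 0 calls among 10 and 4 tested genes in edgeR, limma-voom and DESeq2, with 1 and 0 genes at an unadjusted p under 0.05.

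**Figure D4:**
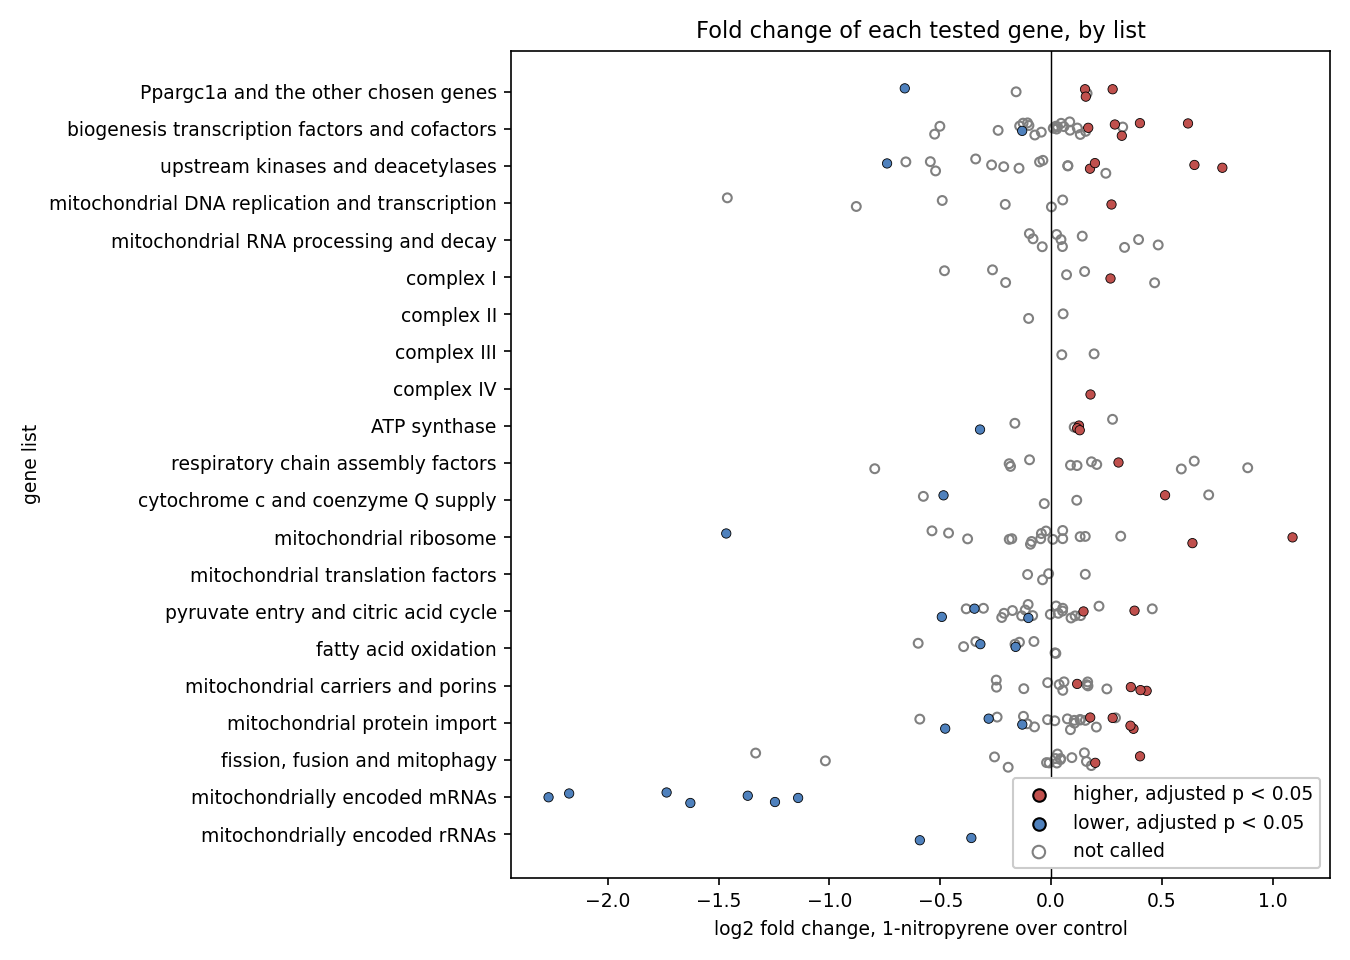
Log2 fold change of 1-nitropyrene over control (horizontal axis) of each tested gene, by list (vertical axis), filled red where called higher, filled blue where called lower and open where not called. Called genes of the nuclear lists lie on both sides of 0, and the mitochondrially encoded rRNAs and mRNAs lie to the left of it, the mRNAs between -2.27 and -1.14.

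Of the 37 called genes of the nuclear lists that were named by the 4 smallest p-values of each list, 17 were called under all 16 alternatives, Pparg, Sirt1, Stk11, Slc25a5, Slc25a3, Atp5g3, Ogdh, Idh2 and Hadhb among them. DESeq2 called 17 of the 37, did not call 18 and gave no adjusted p for 2, and 20 lost the call when at least 1 library was left out. Ppargc1a, Cycs and Atp5b were called in each of the 16.

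**Figure D5:**
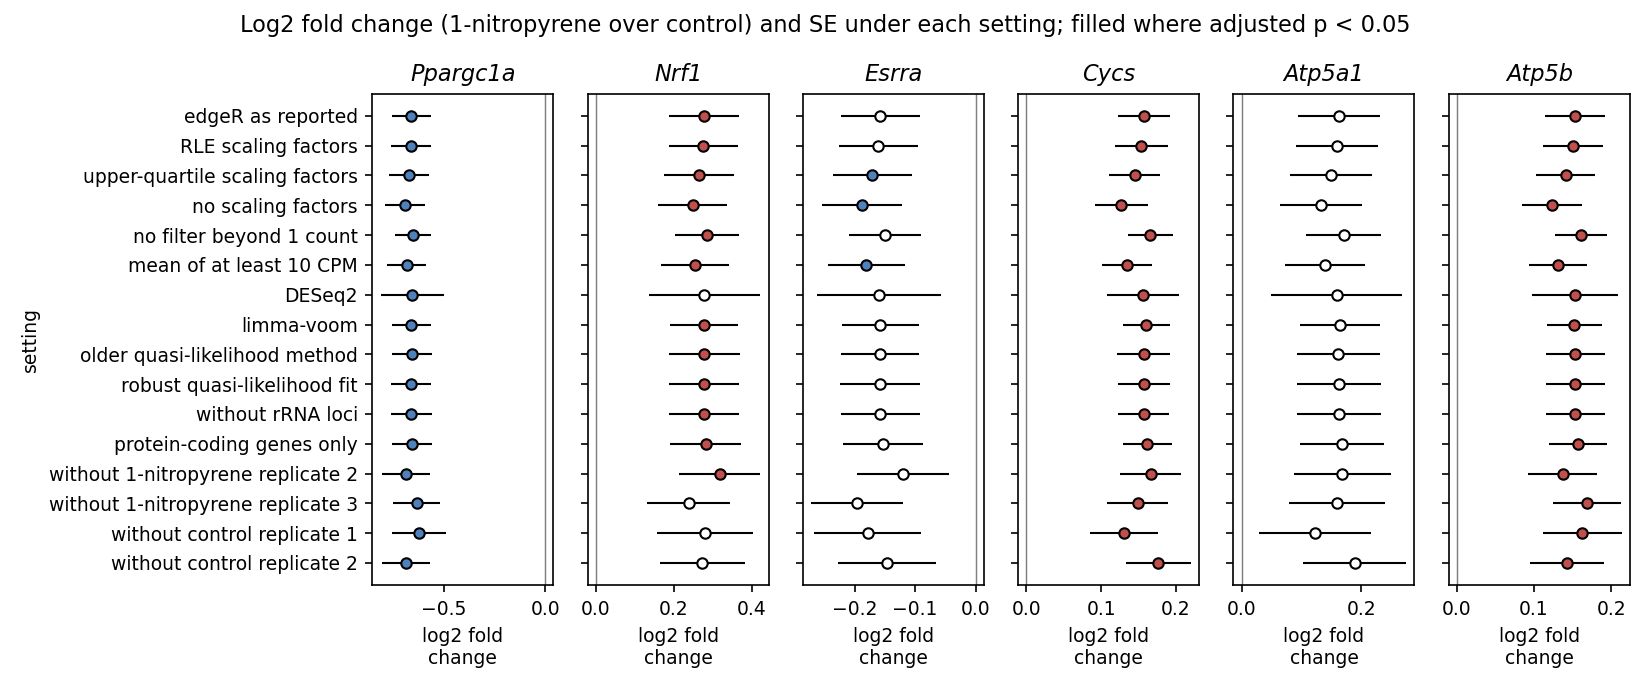
Log2 fold change of 1-nitropyrene over control with its SE (horizontal axes, each on its own scale, with a grey line at 0) for the 6 tested genes under each setting (vertical axis), filled where the adjusted p is under 0.05. Ppargc1a (-0.69 to -0.62), Cycs (0.13 to 0.18) and Atp5b are filled throughout, Nrf1 and Esrra change between filled and open, and Atp5a1 has open symbols throughout.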

How the data were processed

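The authors deposited raw counts per gene for each of the 4 libraries, without normalization. The library kit keeps strand, per the labels' protocols. HISAT2 2.1.0, featureCounts 1.6.3, DESeq2 and GRCm38 (mm10) are named in the submitters' processing notes without roles. Sources used here do not give the strand setting of the counting or its treatment of reads with several map positions. Symbols, exon lengths and coordinates come from GENCODE M21 on GRCm38, which lacked 105 identifiers.

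Counts were filtered with filterByExpr (10 counts in the smaller group at the median depth, 15 in all), scaled with TMM factors and tested with edgeR 4.0.16 (quasi-likelihood, R 4.3.3, limma 3.58.1, two-sided, Benjamini-Hochberg over 7738 genes) with treatment as the term. The common dispersion was 0.000546. The chi-square per degree of freedom between replicates was 2.05 with 1-nitropyrene and 1.62 in control, above sampling noise, so no libraries were merged. Loci of rRNA took 44.2% to 45.9% of counts.

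Alternatives were other scaling factors and filters, DESeq2 1.42.0, limma-voom, other edgeR fits and each library left out. The fit was tested on simulated counts in which all genes had the same dispersion, so its assumption of a shared spread was not tested. Changes as small as those of Cycs and Atp5b were not simulated. Copies were sought for the 10 genes alone, at 95% identity over 300 bases. Named genes are the 10, 8 relatives, up to 4 genes per list with the smallest p, and the 3 nearest to Ppargc1a. Esrrb, Fbxw7, Ep300, Ncor1, Prmt1 and the overlapping genes were named after their values were seen. The 10 genes, the lists and the alternatives were chosen with earlier results of these data known.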

Additional observations from a re-analysis of the deposited data

How the results depend on the processing

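No paired analysis was possible because the groups share only replicate number 2. Ppargc1a, Cycs, Atp5b and Atp5a1 kept their direction and their side of the threshold under all 16 alternatives. For Nrf1 (0.28), log2 fold changes that missed the threshold were 0.28 in DESeq2 and at an adjusted p under 0.01, and leaving out 1 library gave 0.24 to 0.32. Esrra (-0.16) passed at -0.18 with a mean of at least 10 CPM, -0.19 with no scaling factors and -0.17 with upper-quartile factors, each time making 2 of the 10 genes called lower, and ranged from -0.20 to -0.12 with 1 library left out. Polg turned from 0.00 to -0.00215 in DESeq2, -0.00132 with RLE factors, -0.0212 with 10 CPM, -0.0284 with no scaling and -0.0113 with upper-quartile factors, and ranged from -0.0556 to 0.0592 with 1 library left out. Over all genes, 1024 higher calls were 448 in DESeq2 and 690 to 861 with 1 library left out. The 870 lower calls were 249 in DESeq2, 568 at 0.01, 532 with no filter and 511 to 647 with 1 library left out. In the nuclear lists, 31 higher calls were 14 in DESeq2 (21 to 29 with 1 library left out). Their 13 lower calls were 3 in DESeq2, 6 at 0.01, 6 with no filter and 21 with no scaling (6 to 12, with 6 without control replicate 1). Respiratory subunits called higher (5) were 1 in DESeq2, 3 at 0.01 and 3 with no scaling (2 to 4). Those called lower (1) were 0 in DESeq2, at 0.01 and with no filter, and 2 with 10 CPM and with no scaling (0 to 1). The causes were not tested. With 1 library left out, the lone library is assumed to vary like the other pair. No scaling moved the median of all genes to -0.03, and DESeq2 to -0.04. At this depth Ppargc1b was not tested, and why genes were listed at 0 was not tested.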
